A study of Macaca mulatta with 51 samples.

Results

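A group of 8 genes of mitophagy, the removal of damaged mitochondria by autophagy, was followed in biopsies of subcutaneous abdominal adipose tissue (AT) and gastrocnemius skeletal muscle (SM) of rhesus macaques. The members were PINK1, BNIP3L, FUNDC1, SQSTM1, OPTN, MFN1, MFN2 and BCL2L13, chosen by gene symbol for their part in mitophagy, with results of the AT comparisons known, and all 8 were found among the 16033 genes of the count table. All animals were adult, non-diabetic rhesus macaques with diet-induced obesity, of both sexes, with ovariectomized females, and all were kept on the high-fat diet. They were biopsied before treatment (pre-treatment), at the end of daily subcutaneous injections of native human FGF21 in rising doses (post-treatment), and after a period without drug (washout). No untreated animals were followed, so time, drug and the weight loss that accompanied treatment cannot be told apart. The 10 animals with AT gave 10 libraries before treatment, 9 at its end and 8 at washout, and the 8 animals with SM gave 6, 8 and 7.

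In the best known route of mitophagy, the kinase PINK1 accumulates on the outer membrane of a mitochondrion that has lost its membrane potential and phosphorylates ubiquitin there. Proteins of the outer membrane become ubiquitinated, among them the fusion proteins MFN1 and MFN2, and the adaptors OPTN and SQSTM1 (p62) link ubiquitinated cargo to the growing autophagosome. BNIP3L (NIX), FUNDC1 and BCL2L13 are receptors in the outer membrane that can bind autophagosome proteins directly, without the ubiquitin mark. In adipose tissue mitophagy is known for the loss of mitochondria when beige adipocytes turn white, and in muscle for the turnover of mitochondria in working fibres.

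Total counts per library ranged from 14455195 to 23940980. Expression levels are CPM, counts relative to the library total, scaled within a tissue by the TMM method, which corrects library sizes for differences in RNA composition. Every member passed the filter on low counts in both tissues, and their counts ran from 114 for FUNDC1 in 1 SM library to 21884 for OPTN in another, so that the spread between animals limited precision more than counting did. Time points were compared within animals by edgeR's quasi-likelihood test, and p was adjusted for all genes in the fit by Benjamini-Hochberg. A gene was called differentially expressed (DE) when its adjusted p was under 0.05 and its log2 fold change was above 0.26 or under -0.26. The summed level of 4 adipocyte genes was between 9439 and 32426 CPM in AT and at most 1174 CPM in SM, and that of 10 skeletal muscle genes was at least 54007 CPM in SM and at most 178 CPM in AT. The library identifiers fall into 3 number series, called first, middle and last, and the labels do not say what the series mark.

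PINK1 (ENSG00000158828), the kinase that marks damaged mitochondria, was the only member that was DE post-treatment in AT. Over all genes tested in this comparison, 2068 of 13367 were DE, 15.5% of them, so 1 of 8 was not above the background. PINK1 held 77.8 ± 11.4 CPM (SD, n = 10; 59.0 to 98.9, median 75.1) before treatment. Post-treatment it held 56.4 ± 14.5 CPM (n = 9; 30.4 to 82.2, median 56.1), and at washout 75.1 ± 17.8 CPM (n = 8; 54.7 to 98.4, median 70.8), and the ranges of the time points overlapped. From pre- to post-treatment it fell by 0.49 on the log2 scale (SE 0.13, adjusted p = 0.0172, edgeR), and was lower in 9 of 9 animals. A fall in every animal was seen in 673 of the 13367 genes, 5.03% of them.

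The size of the PINK1 fall varied between animals. It was largest in animal 22130, from 73.7 to 30.4 CPM (log2 change -1.27), and in animal 20275, from 98.9 to 44.4 CPM (-1.15). Animal 21189 followed with 88.3 and 53.5 CPM (-0.72). The smallest differences were those of animals 20261, 23004 and 21866, with log2 changes of -0.10, -0.12 and -0.15. Among the 6 animals whose pre- and post-treatment libraries both belonged to the last identifier series, PINK1 was lower in all 6, with a mean log2 change of -0.46. Of the other 3, animals 20456 and 23004 had both libraries in the middle series, and animal 22130 had its pre-treatment library in the middle and its post-treatment library in the last series.

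The PINK1 call rested in part on animal 22130. Without that animal the log2 fold change was -0.39 and the adjusted p 0.0612, and with the libraries of the last identifier series only it was -0.48 with an adjusted p of 0.0620.

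At washout PINK1 rose again relative to post-treatment, by 0.42 on the log2 scale (SE 0.13, adjusted p = 0.0162, edgeR), and was higher in 7 of 8 animals. Animal 23004 was the exception at 67.5 and 63.4 CPM. The same post-treatment libraries entered both comparisons, so the fall and the rise of PINK1 are not independent results. Compared to pre-treatment the washout level of PINK1 differed by -0.06 on the log2 scale (SE 0.13, adjusted p = 0.768), with a 95% interval, taken from the SE, from -0.32 to 0.19. With the libraries of the last identifier series only, the washout rise was 0.30 and its adjusted p 0.275.

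**Figure D1:**
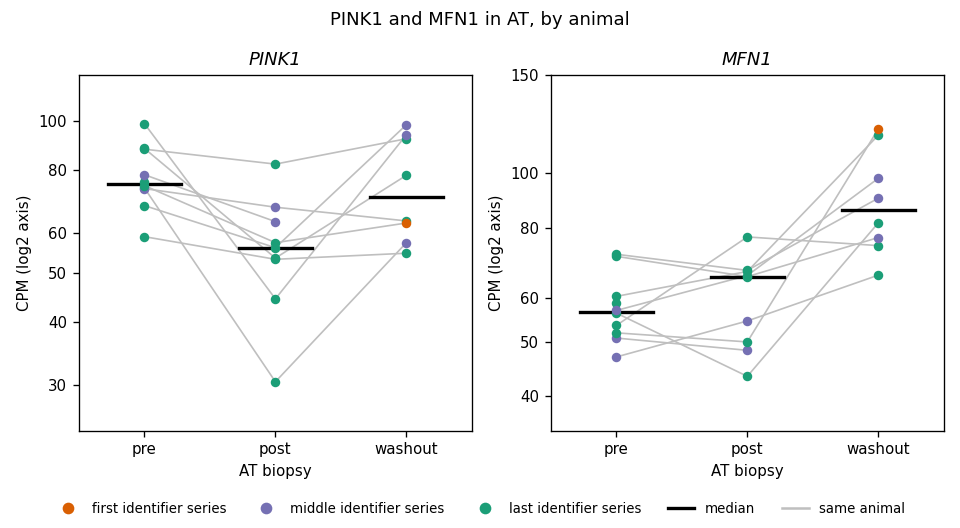
Levels of PINK1 (left) and MFN1 (right) in AT, in CPM on a log2 axis, at the 3 time points. Points are libraries coloured by identifier series, grey lines join libraries of 1 animal and black bars are medians. PINK1 medians were 75.1, 56.1 and 70.8 CPM, with every line from pre- to post-treatment going down, and MFN1 medians were 56.6, 65.4 and 85.9 CPM, with every washout library above the pre-treatment library of its animal.

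Summed marker levels of several cell types had different medians at these time points in AT, without a test. The ranges of the time points overlapped for every list. The summed level of 9 macrophage genes ranged from 563 to 2801 CPM pre-treatment (median 1431), from 926 to 6684 CPM post-treatment (median 2463) and from 361 to 3383 CPM at washout (median 670). Summed levels of 6 T cell genes had medians of 120, 209 and 66.5 CPM and those of the 4 adipocyte genes 18036, 16411 and 15568 CPM. Medians of the 7 endothelial genes were 1262, 1114 and 1667 CPM, of the 8 progenitor and fibroblast genes 8257, 10781 and 8482 CPM, and of the 8 Schwann cell and neuronal genes 788, 817 and 782 CPM. The 6 erythroid genes in the table, of which HBA1 and HBA2 were at 0 in every library, had medians of 2677, 852 and 5108 CPM. Some medians also varied with the identifier series, as for the erythroid genes pre-treatment, at 8760 CPM in the middle and 773 CPM in the last series. The part of these cells in the PINK1 result and in the other results in AT was not tested. In a bulk sample fewer cells of a type and less RNA per cell cannot be told apart.

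The 3 mitophagy receptors that can act without ubiquitin were not DE in AT at any of the 3 comparisons. BNIP3L (ENSG00000104765) held 295 ± 53.9 CPM pre-treatment, 295 ± 33.6 CPM post-treatment and 277 ± 55.7 CPM at washout, and its post-treatment log2 fold change was 0.01 with an interval from -0.16 to 0.19. FUNDC1 (ENSG00000069509), the member with the fewest counts, held 10.9 ± 1.66, 10.8 ± 1.42 and 10.5 ± 1.74 CPM at the 3 time points, with a post-treatment log2 fold change of -0.01 and an interval from -0.25 to 0.24. For both genes about as many animals were higher as lower, with BNIP3L higher post-treatment in 4 of 9 and FUNDC1 in 5 of 9.

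BCL2L13 (ENSG00000099968), the third of these receptors, was lower post-treatment in 8 of 9 animals without passing the test. It held 136 ± 17 CPM pre-treatment, 110 ± 16.2 CPM post-treatment and 108 ± 22.6 CPM at washout. The post-treatment log2 fold change was -0.28 (SE 0.11, adjusted p = 0.0914, edgeR), and that of washout compared to pre-treatment was -0.31 (SE 0.12, adjusted p = 0.0708). Animal 24849 was the exception in both comparisons. Without animal 24849 the washout difference was DE at -0.37 (adjusted p = 0.0429), and without animal 22130 it was DE at -0.35 (adjusted p = 0.0227). With every animal kept it was DE by voomWithQualityWeights (adjusted p = 0.0105), and by edgeR in the libraries of the 2 time points alone (0.0154), with the identifier series as a term (0.0249) or without the animal term (0.0277), so that 6 of 21 alternatives called it.

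BNIP3, the paralog of BNIP3L and itself a mitophagy receptor, was examined beside the members. In AT it held 118 ± 27.5, 99.1 ± 21.3 and 94.4 ± 21.6 CPM at the 3 time points. Its log2 fold change post-treatment was -0.19 (SE 0.13, adjusted p = 0.316) and it was not DE in any comparison of time points.

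Of the adaptors OPTN was DE in AT at washout compared to pre-treatment, and SQSTM1 did not pass in any comparison of time points. OPTN (ENSG00000123240) held 238 ± 40.7 CPM pre-treatment, 219 ± 22.2 CPM post-treatment and 197 ± 33.4 CPM at washout. From pre-treatment to washout it fell by 0.27 on the log2 scale (SE 0.08, adjusted p = 0.0249, edgeR), close to the fold limit, and it was lower in 8 of 8 animals. A lower level at washout in every animal was seen in 882 of the 13367 genes, 6.60% of them. The OPTN call held under 11 of 21 alternatives and was lost without animal 20261 (-0.27, adjusted p = 0.0551), 20275 (-0.26, 0.0559), 20456 (-0.25, 0.0378), 21866 (-0.24, 0.0480) or 26292 (-0.24, 0.0655), in some because the value passed inside the fold limit. Without the animal term the adjusted p was 0.0717.

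SQSTM1 (ENSG00000161011) varied widely between animals in AT. Pre-treatment libraries ranged from 324 CPM in animal 24849 to 965 CPM in animal 20456, and the means were 551 ± 202, 469 ± 97.5 and 368 ± 103 CPM at the 3 time points. From pre-treatment to washout it was lower in 7 of 8 animals, and its log2 fold change was -0.53 (SE 0.19, adjusted p = 0.0574, edgeR). Animal 24849 went the other way, from 324 to 576 CPM, and without it the difference was DE at -0.68 (adjusted p = 0.00708). With every animal kept it was also DE by DESeq2 (adjusted p = 0.0296), by voomWithQualityWeights (0.0146) and by edgeR without the animal term (0.0273), 4 of 21 alternatives in all.

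MFN1 (ENSG00000171109) gave the member results of smallest adjusted p in AT, both against washout. It held 57.8 ± 8.16 CPM pre-treatment, 59.8 ± 11.1 CPM post-treatment and 90.6 ± 20 CPM at washout. At washout it rose by 0.57 on the log2 scale relative to post-treatment (SE 0.12, adjusted p = 0.00119, edgeR), higher in 7 of 8 animals. Relative to pre-treatment it rose by 0.61 (SE 0.12, adjusted p = 0.000786), higher in 8 of 8. A higher level at washout in every animal was seen in 1232 of the 13367 genes, 9.22% of them. The rise was largest in animal 26292, from 51.9 to 120 CPM, whose washout library was the only AT library of the first identifier series, and smallest in animal 24849, from 71.1 to 76.8 CPM. With the libraries of the last series only, the rise over post-treatment was 0.59 (adjusted p = 0.0398) and that over pre-treatment 0.58 (adjusted p = 0.0638).

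MFN2 (ENSG00000116688), the paralog of MFN1 in outer membrane fusion, did not follow MFN1. Its levels were 226 ± 33.1, 197 ± 26.6 and 208 ± 27.0 CPM, it was lower post-treatment in 8 of 9 animals (log2 fold change -0.21, SE 0.09, adjusted p = 0.106), and it was not DE at washout in either comparison. Without animal 24849, the exception, the post-treatment difference was DE at -0.27 (adjusted p = 0.0353), and this was the only 1 of 21 alternatives that called it. How reads that match both paralogs were counted is not given in the sources used here.

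Of the 8 members 2 were DE at washout compared to post-treatment, both higher, against a background of 4731 of 13367 genes or 35.4%. Compared to pre-treatment 2 were DE at washout, MFN1 higher and OPTN lower, against 2735 genes or 20.5%. The median log2 fold changes of the 8 were -0.17, -0.04 and -0.10 in the comparisons post-treatment to pre-treatment, washout to post-treatment and washout to pre-treatment, and those of all genes tested were 0.03, -0.00 and -0.02. With 8 members, 1 DE gene post-treatment and 2 in each washout comparison were too few to tell the members' share from the background.

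**Figure D2:**
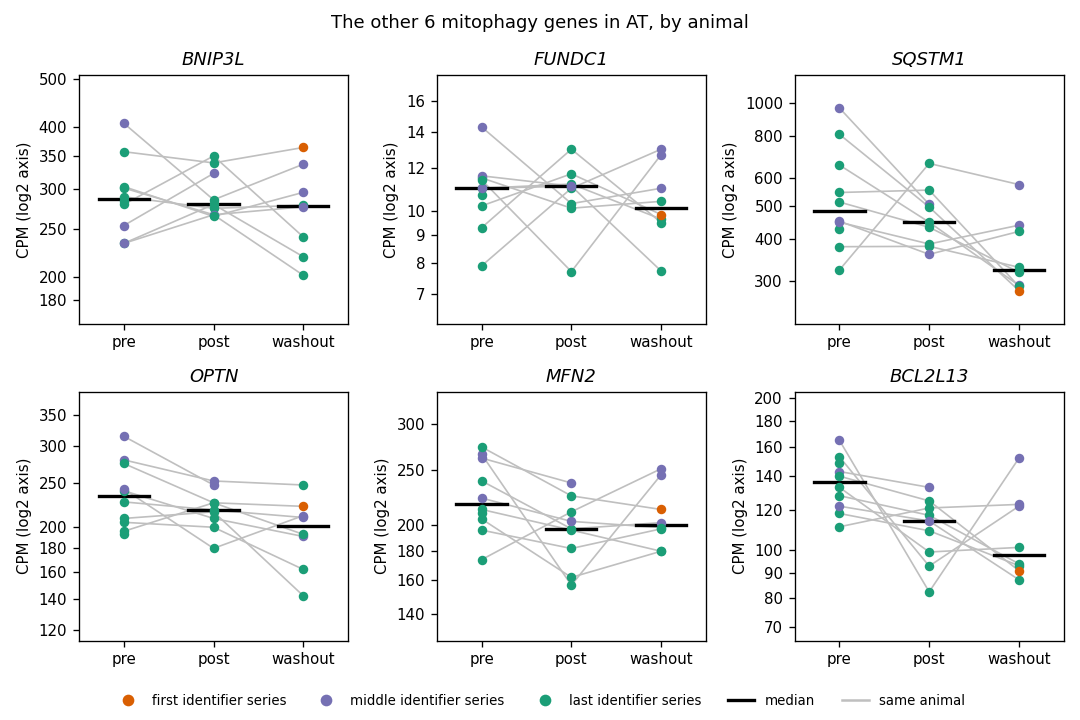
Levels of the other 6 members in AT, in CPM on log2 axes, at the 3 time points. Points are libraries coloured by identifier series, grey lines join libraries of 1 animal and black bars are medians. OPTN washout libraries lay between 142 and 247 CPM and pre-treatment libraries between 193 and 315 CPM, and SQSTM1 spread most before treatment, from 324 to 965 CPM.

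Before the SM results, 3 libraries have to be described. Of the 8 SM post-treatment libraries, 5 belonged to the first and 3 to the last identifier series, the latter from animals 21189, 21866 and 24849. The ranges of the 2 series did not overlap for 7 of the 8 members, all except OPTN, against 3625 of the 12617 genes tested in SM or 28.7%. MFN2 held 469 to 842 CPM in the first series and 117 to 162 CPM in the last. PINK1 held 190 to 377 and 86.0 to 119 CPM, SQSTM1 469 to 845 and 269 to 342 CPM, and BCL2L13 133 to 257 and 72.6 to 103 CPM. FUNDC1 was also lower in the 3 libraries, at 7.41 to 10.3 CPM against 10.4 to 13.8 CPM.

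BNIP3L and MFN1 stood the other way, at 69.0 to 79.3 against 20.5 to 40.5 CPM for BNIP3L and at 53.3 to 63.9 against 35.1 to 48.1 CPM for MFN1. The same 3 libraries had a summed level of skeletal muscle genes of 54007 to 107142 CPM, against 125656 to 267301 CPM in the first series. Their summed level of progenitor and fibroblast genes was 2652 to 4687 CPM, against 250 to 2286 CPM. The part of cell composition in the members' values was not tested.

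Across all SM libraries the other marker lists were as follows. The summed level of 5 slow fibre genes ranged from 47.1 to 31783 CPM and that of 7 fast fibre genes from 44223 to 202508 CPM. Macrophage genes reached at most 267 CPM, T cell genes 47.1 CPM, endothelial genes 335 CPM, Schwann cell and neuronal genes 261 CPM and erythroid genes 4279 CPM.

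None of the 8 members was DE in SM in any comparison of time points by edgeR or DESeq2 with time point and animal as the only terms. Post-treatment 0 of 12617 genes were DE, 0% of them, with 410 genes at an unadjusted p under 0.05, and DESeq2 and voomWithQualityWeights of limma also called 0. None of the 8 members was under that unadjusted p. At washout 24 genes (0.190%) were DE relative to post-treatment and 8 (0.0634%) relative to pre-treatment.

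The intervals of the members in SM were wide. For MFN2 the post-treatment log2 fold change was 0.08 with an interval from -0.77 to 0.93, with animals 21189 and 24849 going from 483 to 117 and from 462 to 155 CPM and animals 19832 and 23004 from 191 to 708 and from 211 to 507 CPM. For OPTN, whose SM libraries spanned 269 to 1651 CPM, it was -0.23 (-0.71 to 0.25), and for PINK1 0.07 (-0.36 to 0.50). From post-treatment to washout 3 members were under an unadjusted p of 0.05. They were BCL2L13 with a log2 fold change of 0.54 (adjusted p = 0.242), BNIP3L with -0.50 (0.261) and FUNDC1 with -0.33 (0.279). Without the 3 libraries of the last series 0 of the 8 members were DE in each of the comparisons.

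With the identifier series as a term in the SM model, 4 members were DE at washout relative to post-treatment. BCL2L13 had a log2 fold change of 1.17 (adjusted p = 0.00372), MFN2 of 1.5 (0.00667), BNIP3L of -0.77 (0.0403) and MFN1 of -0.45 (0.0290). Relative to pre-treatment BCL2L13 (0.75, adjusted p = 0.0242) and MFN2 (1.22, 0.0229) were DE. No SM washout library belonged to the first series and 6 of 7 belonged to the last. Only 2 animals had their post-treatment and washout libraries both in the last series, and 2 their pre-treatment and washout libraries. Series and time point can therefore only partly be told apart in SM. Within the last series MFN2 held 191 to 492 CPM pre-treatment, 117 to 162 CPM post-treatment and 439 to 885 CPM at washout. For BNIP3L these levels were 30.8 to 34.7, 69.0 to 79.3 and 18.9 to 43.9 CPM. BCL2L13 held 133 to 167, 72.6 to 103 and 192 to 269 CPM, and MFN1 55.4 to 65.1, 53.3 to 63.9 and 38.3 to 48.0 CPM. The term takes the same offset at every time point, and whether that held was not tested.

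**Figure D3:**
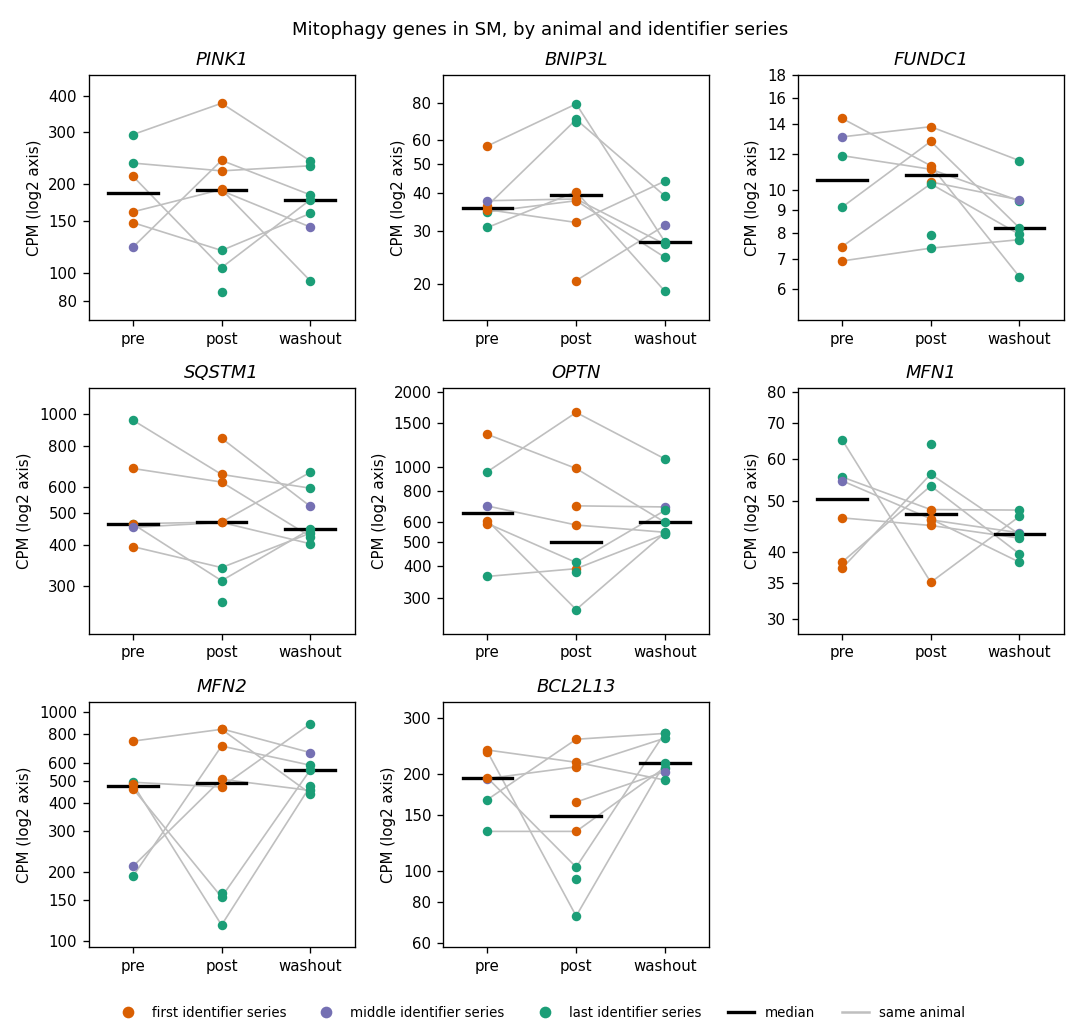
Levels of the 8 members in SM, in CPM on log2 axes, at the 3 time points. Points are libraries coloured by identifier series, grey lines join libraries of 1 animal and black bars are medians. The post-treatment libraries of the last series lie at 117 to 162 CPM for MFN2 and 72.6 to 103 CPM for BCL2L13, below the first series, and at 69.0 to 79.3 CPM for BNIP3L, above it.

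The change in AT was then compared with the change in SM by the interaction of tissue and time point. The post-treatment change of PINK1 was 0.61 higher in SM than in AT on the log2 scale (SE 0.25, adjusted p = 0.376, edgeR), and none of the 8 members was DE, against 6 of 12322 genes (0.0487%), with 1306 at an unadjusted p under 0.05. DESeq2 and voomWithQualityWeights also called 0 of the 8. Without the 3 SM libraries the PINK1 difference was 0.90 (adjusted p = 0.0471), so whether the PINK1 fall differed between the tissues depended on them.

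From post-treatment to washout 1 of the 8 members, MFN1, changed differently in the tissues, against 2793 of 12322 genes (22.7%). MFN1 rose by 0.57 in AT and had a log2 fold change of -0.14 in SM, where it was 49.2 ± 8.6 CPM post-treatment and 43.1 ± 3.48 CPM at washout. The difference of SM from AT was -0.69 (SE 0.17, adjusted p = 0.00511). Without the 3 SM post-treatment libraries it was -0.48 with an adjusted p of 0.0570, and PINK1 was DE in its place at -0.86 (0.00704), from -0.61 (0.0751) with them.

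SM and AT of the same animal were compared in counts scaled jointly over both tissues. Before treatment all 8 members were DE between the tissues in the 6 animals with both biopsies, 7 of them higher in SM, but 72.1% of all genes tested were DE too, 8873 of 12299. OPTN was 5.56 times as high in SM as in AT (log2 fold change 2.47, SE 0.27), PINK1 4.28 times (2.10, SE 0.18), MFN2 3.24 times (1.70, SE 0.27), BCL2L13 2.54 times (1.35, SE 0.18) and SQSTM1 2.11 times (1.08, SE 0.17). FUNDC1 (0.74, SE 0.20) was higher in SM in 6 of 6 animals and MFN1 (0.55, SE 0.16) in 5 of 6. Adjusted p ran from 9.12e-06 for BNIP3L to 0.0132 for MFN1 (edgeR). BNIP3L went the other way at 0.237 times the AT level (log2 fold change -2.08, SE 0.17), while its paralog BNIP3 was 6.57 times as high in SM (2.72, SE 0.15).

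The scaling mattered here. When libraries were scaled by their totals alone, the median log2 fold change of all genes moved from -0.04 to -0.84 before treatment and from -0.09 to -1.07 at washout. FUNDC1 and MFN1 then turned to -0.06 and -0.25 before treatment, SQSTM1 was no longer DE (0.28, adjusted p = 0.232), and OPTN, PINK1, MFN2, BCL2L13 and BNIP3L kept their calls and directions.

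At washout 6 of the 8 members were DE between the tissues, against 8555 of 12139 genes or 70.5%. OPTN (log2 fold change 2.34), MFN2 (2.19), PINK1 (1.96), BCL2L13 (1.89) and SQSTM1 (1.11) were again higher in SM and BNIP3L (-2.24) lower. With library totals alone the SQSTM1 value was 0.13 (adjusted p = 0.632). MFN1 did not pass at washout, with a log2 fold change of -0.07 (adjusted p = 0.577) and an interval from -0.29 to 0.15, but it was DE and lower in SM with library totals alone. The AT mean of MFN1 in the joint scaling was 47.4 CPM before treatment and 65.1 CPM at washout, and that of SM was 67.0 and 59.9 CPM. FUNDC1 had a log2 fold change of 0.55 (adjusted p = 0.0723).

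**Figure D4:**
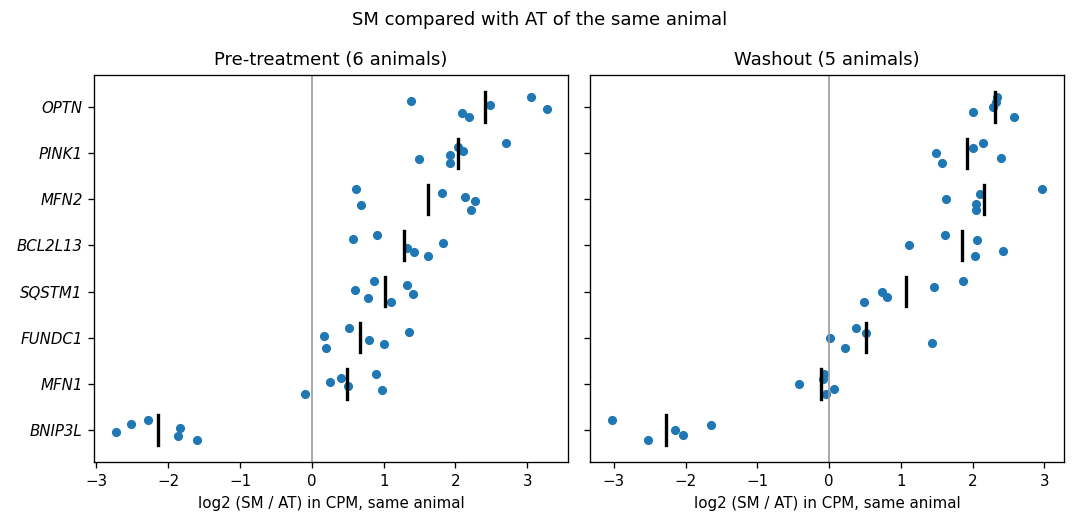
Log2 ratio of the level in SM to that in AT of the same animal, from jointly scaled CPM, before treatment (left, 6 animals) and at washout (right, 5 animals). Each point is 1 animal and black bars are means. OPTN, PINK1, MFN2, BCL2L13 and SQSTM1 lie to the right of 0 in every animal and BNIP3L to the left, while MFN1 lies around 0 at washout.

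The wider machinery was examined in 8 lists with 129 symbols, of which 108 were tested in AT. Post-treatment 1 of the 108 genes was DE and higher and 14 were DE and lower, 13.9% in all against the background of 15.5%, with a median log2 fold change of -0.05. Of 24 regulators of the PINK1 pathway 3 fell, namely the mitochondrial import receptor TOMM70 (-0.36, adjusted p = 0.0302, edgeR), the deubiquitinase USP14 (-0.34, 0.0201) and the redox chaperone PARK7 (-0.29, 0.0414). Of 8 further mitophagy receptors and factors 1 fell, SAMM50 (-0.35, 0.0184), a part of the outer membrane assembly machinery. Of 9 selective autophagy adaptors 1 rose, WDFY3 (0.33, 0.0378), a scaffold for aggregates.

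In the ATG8 family, the proteins that coat autophagosomes, 1 of 6 fell, MAP1LC3A (-0.54, adjusted p = 0.0159, edgeR). Of 25 genes of the core machinery 4 fell, the ATG8 protease ATG4A (-0.50, adjusted p = 0.00769), the lipid transfer protein ATG2A (-0.40, 0.0289), BECN1 (-0.30, 0.0216), which belongs to the lipid kinase complex that starts autophagosomes, and the scramblase ATG9A (-0.28, 0.0477). Of 7 genes of the TFEB family of lysosomal transcription factors and their regulators 1 fell, TFE3 (-0.56, 0.00479). None of 16 genes of mitochondrial fusion and fission was DE. Of 13 markers of mitochondrial content 4 fell, citrate synthase CS (-0.55, 0.00593), the chaperones HSPD1 (-0.40, 0.0384) and HSPA9 (-0.27, 0.0334), and the import channel TIMM23 (-0.31, 0.0323). The calls of MAP1LC3A, ATG4A, TFE3 and CS held under all 21 alternatives, whereas those of ATG9A and PARK7 held under 7 and 10 of them, those of WDFY3 and HSPA9 under 12 each and that of HSPD1 under 13.

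At washout 13 of the 108 genes were DE and higher than post-treatment and 15 were lower, 25.9% in all against 35.4%. With library totals alone the counts were 22 higher and 7 lower, so the balance of directions depended on the scaling. MAP1LC3A (0.55, adjusted p = 0.00536, edgeR), ATG2A (0.61, 0.000964), CS (0.47, 0.00497) and TIMM23 (0.33, 0.0128) rose after having fallen post-treatment. Both comparisons use the same post-treatment libraries, so values low there by chance would favour a fall followed by a rise. The mitochondrial helicase TWNK (0.48, 0.00833), the transport adaptor RHOT2 (0.51, 0.00477), the ubiquitin ligase subunit FBXW7 (0.31, 0.0222), the initiation factor ATG13 (0.43, 0.00343) and the fission factor INF2 (0.49, 0.0489) rose as well.

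WDFY3 fell by 0.85 on the log2 scale (adjusted p = 2.21e-05, edgeR), and the TFEB family held the largest decreases. In that family FNIP2 (-1.36, adjusted p = 0.000153), TFEC (-0.98, 0.0379), MITF (-0.83, 0.000675) and FNIP1 (-0.36, 0.00713) fell. Others that fell were the anti-apoptotic gene BCL2L1 (-0.69, 0.000246), the deubiquitinase USP8 (-0.48, 0.000284), the lipid kinase PIK3C3 (-0.37, 0.00141) and ATG7 (-0.35, 0.0134), the ferritin adaptor NCOA4 (-0.33, 0.0106), GABPA (-0.32, 0.0196), a transcription factor of respiratory genes, and SLC25A46 (-0.31, 0.0287). INF2, TFEC, SLC25A46 and GABPA lost their calls under 8 or more of 21 alternatives. The summed macrophage level given above had its lowest median at the same time point, and its part in these decreases was not tested.

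Compared to pre-treatment 8 of the 108 genes were DE and higher at washout and 15 were lower, 21.3% in all against 20.5%, and with library totals alone 13 were higher and 5 lower. RHOT2 (0.53, adjusted p = 0.00502, edgeR), ATG14 (0.48, 0.00131), FLCN (0.49, 0.00140), TWNK (0.46, 0.0159), MTFR2 (0.57, 0.00619), MFF (0.32, 0.00454), ATG13 (0.32, 0.0289) and NRF1 (0.29, 0.0298) rose. MITF (-0.87, 0.000491), FNIP2 (-0.84, 0.00800), WDFY3 (-0.52, 0.00185), TFE3 (-0.48, 0.00484), BCL2L1 (-0.42, 0.0147), TOLLIP (-0.42, 0.0103), SLC25A46 (-0.37, 0.0171), PIK3C3 (-0.35, 0.00278), ATG2B (-0.34, 0.0288), NCOA4 (-0.32, 0.0209), USP8 (-0.30, 0.0142), FKBP8 (-0.30, 0.0440) and BAG5 (-0.27, 0.0238) were among those that fell. The FKBP8 call held under 8 of 21 alternatives, and the other calls named here held under 15 or more. MAP1LC3A, CS and PINK1 were not DE in this comparison.

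**Figure D5:**
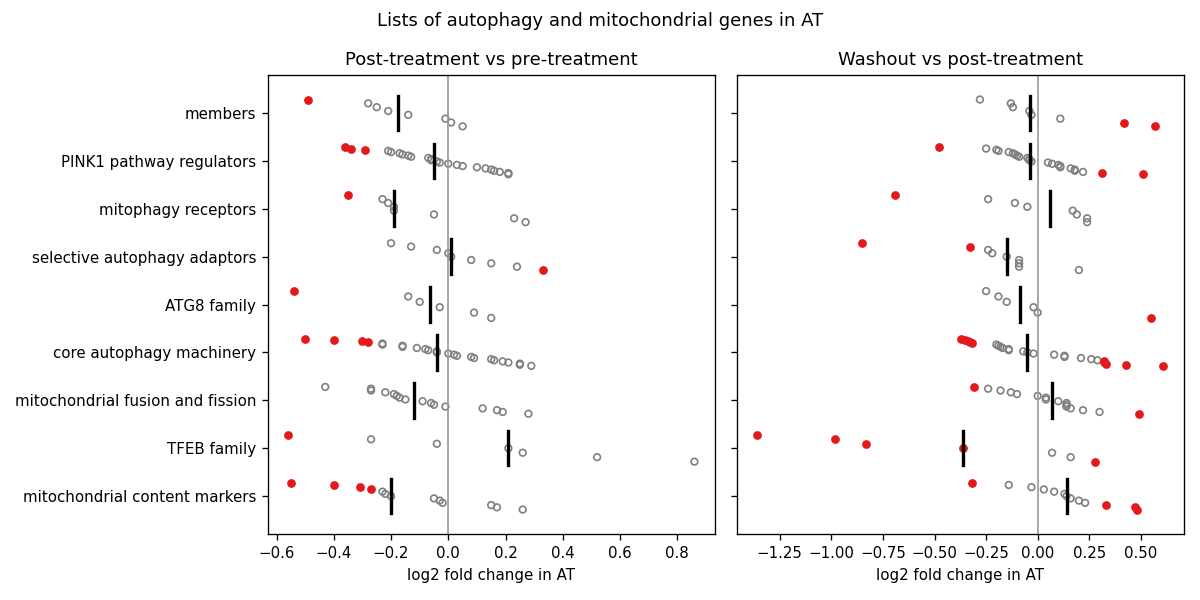
Log2 fold changes in AT of the 8 members and of the genes of 8 lists, post-treatment compared to pre-treatment (left) and washout compared to post-treatment (right). Red points are DE genes, open points are not DE and black bars are medians. On the left 14 of 15 red points of the lists lie below 0, and on the right 13 lie above and 15 below 0.

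In SM none of the 107 genes of the lists tested was DE in any comparison of time points by edgeR with time point and animal as the only terms. Between the tissues 60 were higher and 17 lower in SM before treatment, 72.0% in all against 72.1%, and 66 were higher and 18 lower at washout, 78.5% against 70.5%. With library totals alone these counts were 24 higher and 41 lower before treatment and 21 higher and 49 lower at washout, so the direction of the lists between the tissues depended on the scaling. The largest differences before treatment were those of TFEC (-3.52), MIEF2 (3.15), VDAC3 (3.0), BNIP3 (2.72), INF2 (-2.59), VDAC1 (2.51) and ATG4D (2.5). Each was called at an adjusted p of 8.21e-05 or less by edgeR. The ratios of TFEC and INF2 rest on low levels in SM, 0.675 ± 0.319 and 1.71 ± 0.853 CPM before treatment. The reads of the near-identical genes MAP1LC3B and MAP1LC3B2 could be split between them, so their values are not given.

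In the test of the tissue difference of the change, none of the 107 list genes was DE post-treatment. From post-treatment to washout 12 were DE with a higher change in SM and 7 with a lower one, 17.8% against 22.7%, and with library totals alone the counts were 7 and 23. FNIP2 (2.48, adjusted p = 5.54e-05, edgeR), MITF (1.93, 0.000777) and WDFY3 (1.49, 3.82e-07) had the largest differences.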

How the data were processed

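Stranded mRNA libraries (paired-end) of AT and SM punch biopsies were used. Per the labels and the study's methods, the authors aligned reads with STAR to the MacaM rhesus genome, kept libraries of adequate mapping, matched macaque genes to human homologs by symbol, and deposited raw gene counts without normalization for 48 of 51 labelled samples. The counting tool and strand setting are not given in the sources used here, and the other 3 SM samples were not analysed here. After dropping 70 repeat entries with identical counts, 16033 genes remained.

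Within each tissue, genes that reached 0.5 CPM in 10% or more of its libraries were tested with edgeR 4.0.16 (R 4.3.3): TMM, robust quasi-likelihood fits, time point and animal as terms, 1 fit per tissue, two-sided, Benjamini-Hochberg adjustment over all genes tested. Tissue differences were fitted at pre-treatment and washout in animals with both biopsies, and the interaction over all libraries. Fold changes are fitted values, and 95% intervals are normal intervals from the SE. They are too narrow at these degrees of freedom, most of all in the tissue fits. Per-animal changes used log2 CPM with a prior count of 2. Residual degrees of freedom were 15 in AT, 11 in SM, 5 and 4 in the tissue fits and 26 in the interaction.

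Libraries were paired by the animal number in the labels. Over genes, after removal of time point means, 25 same-animal pairs in AT had a median r of 0.352 against -0.0354 for 217 other pairs, and 19 pairs in SM 0.279 against -0.0464 for 127.

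Members and lists were chosen with earlier results of these data known. Beside the members, the text names BNIP3 and at most 4 DE genes of largest change per list and comparison with a mean of at least 1 CPM. Some genes, and the results that rest on them, are not reported here. Alternatives were DESeq2 1.42.0, voomWithQualityWeights of limma 3.58.1, library totals alone, other filters, no animal term, each animal left out, only the 2 time points compared, identifier series as a term, and AT without the pre-treatment library of animal 20275. Chosen after seeing the data were edgeR's earlier quasi-likelihood method, AT libraries of the last identifier series only, and SM without 3 post-treatment libraries. The fits were run on simulated counts in which 200 genes changed by 1.5 on the log2 scale. Between 133 (SM versus AT at washout) and 193 (AT post- versus pre-treatment) of the 200 were recovered. Smaller changes, such as those of the members over time in AT, were not simulated. No sequences or coordinates are given, since no genome of the build was used.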

Additional observations from a re-analysis of the deposited data

Results flagged for a closer look

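In 3 of 48 groups of libraries (8 members, 2 tissues, 3 time points) a single library stood apart from its group by Dixon's criterion, which chance gives in about 5% of groups. BNIP3L in SM pre-treatment was highest in animal 24849, at 57.5 CPM against 30.8 to 37.8 CPM in the other 5. FUNDC1 in AT post-treatment was lowest in animal 24849, at 7.70 CPM, against a group median of 11.1 CPM. OPTN in SM at washout was highest in animal 19832, at 1077 CPM against a group median of 601 CPM. With time point and animal as the only terms, BNIP3L and OPTN were not DE over time in SM with these libraries. Without animal 24849 no call of FUNDC1 or BNIP3L between time points was gained.

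The change of MFN1 from post-treatment to washout differed between the tissues by -0.69 on the log2 scale (SM minus AT, adjusted p = 0.00511, edgeR's interaction test). It was higher in 7 of 8 animals in AT and lower in 6 of 7 in SM. Without the 3 SM post-treatment libraries of the last identifier series it was -0.48 (adjusted p = 0.0570).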

How the results depend on the processing

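Leaving out each animal in turn, the number of members called ran from 0 to 2 post-treatment in AT (0 without animal 22130, 2 without animal 24849), was 2 in each case at washout compared to post-treatment, and ran from 1 to 4 compared to pre-treatment (4 without animal 24849). It was 0 in all SM comparisons, 8 in each case between the tissues before treatment, 6 to 7 at washout, and 0 and 1 to 2 for the difference of the changes. With libraries of the last identifier series only it was 0, 1 and 0 in the AT comparisons, and without the pre-treatment AT library of animal 20275 it was 1 for washout to pre-treatment. With library totals alone it was 1 for that comparison, 5 between the tissues before treatment, where FUNDC1 (-0.06) and MFN1 (-0.25) changed direction, and 2 for the washout interaction, and MFN2 turned to 0.01 in AT from pre-treatment to washout. voomWithQualityWeights gave 4 for AT washout to pre-treatment and 3 for the washout interaction. The identifier series as a term gave 4 and 2 members in SM at washout compared to post- and pre-treatment, and leaving out the 3 SM libraries gave 1 for the post-treatment interaction. The cause of these shifts was not tested.

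Without the replicate block, that is without the animal term, 1, 2 and 3 members were called in the AT comparisons and 0 in each of SM. In AT at washout compared to pre-treatment the 3 were BCL2L13 (-0.34), MFN1 and SQSTM1 (-0.58), and OPTN (-0.27, adjusted p = 0.0717) was lost. Over all genes it called 1420 rather than 2068 post-treatment in AT. With the animal term kept, the AT count was 805 without animal 22130 and 998 without animal 20275. In SM at washout compared to post-treatment the fit with the animal term called 24 genes. The count was 224 without that term, 359 with DESeq2 and 2650 with the identifier series as a term. Compared to pre-treatment the fit with the animal term called 8 genes, against 41 without it and 674 with voomWithQualityWeights. Library totals alone moved the median log2 fold change of all genes from -0.03 to -0.16 in SM at washout compared to post-treatment and from -0.03 to -0.25 in the washout interaction, where MFN1 was -0.92. Few residual degrees of freedom limit the tissue fits.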
